A study of Mus musculus with 1152 samples.

Results

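The genes described here were 10 genes of antigen presentation by MHC class I, measured in LECs (lymphatic endothelial cells) from the lymphatic plexus of the nasopharynx (NPLP) of aged mice. They were chosen by name, as rows of the expression table, from 23168 genes in all, and every one of them was present. B2m encodes the light chain, H2-K1 and H2-D1 the 2 classical heavy chains, H2-Q4, H2-Q6, H2-Q7, H2-T22, H2-T23 and H2-M3 the 6 non-classical heavy chains, and Tap1 a subunit of the peptide transporter. Their levels were compared with each other, over groups of cells, and with all other genes, to see which genes varied with them.

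The samples were CD31+ PDPN+ cells of C57BL/6 mice, sorted by flow cytometry as single cells into the wells of plates, from which full-length Smart-seq3 libraries had been made. The 56.9% of the labelled cells that were analysed here were all of 1 group, aged NPLP LECs. The nasopharyngeal mucosa of several aged mice of both sexes had been pooled and no label ties a cell to an animal, so the cells were 1 sample with no replicates, and no test between groups was possible. The shallowest cell had 7046 reads and the deepest 10727631, around a median of 148202.5, and cells had 2006 to 7679 detected genes. The sort label held in the data for the 8 LEC identity genes listed, among them Prox1 and Flt4, which were detected in 87.7% to 100% of cells. Of the blood endothelial markers listed, Emcn was detected in 96.2% of cells, Aqp1 in 96.04% and Plvap in 65.9%. Vwf was detected in 10.4%, Flt1 in 2.44% and Sox17 in 1.98%. Of the fibroblast markers, Dcn was detected in 30.03% of cells and Col3a1, the next, in 4.73%. Reads of at least 1 of 10 haematopoietic markers were present in 21.8% of cells, and reads of Ptprc, the pan-leukocyte gene, in 6 cells. The summed level of H2-K1, H2-D1 and B2m, as ln of 1 plus reads per 10000, was 4.66 on average in cells with such a read and 4.61 in those without.

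An MHC class I molecule is a heavy chain bound to beta-2 microglobulin and a short peptide. Peptides cut by the proteasome are carried by the Tap1 and Tap2 transporter into the endoplasmic reticulum, where tapasin and chaperones load them. Classical heavy chains show a wide range of peptides to CD8 T cells, whereas non-classical ones have narrower roles, such as the display of signal-sequence peptides to natural killer receptors by Qa-1, the product of H2-T23, or of formylated peptides by H2-M3. Interferons raise transcription of many of these genes, and LECs are known as cells that can present antigen on class I.

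By GENCODE M21 coordinates on GRCm38, which is the mm10 build of the files, B2m lay on chromosome 2 from 122147686 to 122153083, and the other 9 members lay on chromosome 17 within 3.28 megabases. Tap1 stood at 34187553 to 34197225, close to H2-K1 at 33996017 to 34000347. H2-D1 at 35262730 to 35267499 was followed by H2-Q4, H2-Q6 and H2-Q7, of which H2-Q7 ended at 35443773. H2-T23 at 36029773 to 36032855 and H2-T22 at 36037128 to 36042747 were neighbours, and H2-M3 at 37270220 to 37274484 was the most distal. The values counted reads over the whole gene.

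Promoter sequences are listed for B2m, H2-K1, H2-D1, H2-Q6, H2-T23 and Tap1. The members, most of which are close relatives, differed in how they varied over cells. Whether promoter letters have a part in these differences was not tested. Each sequence is from RefSeq (build GRCm38.p6), runs from 250 bases before to 50 after a start site, and is written on the strand of its gene. Capitals mark the letters of 4 motifs searched on both strands: AANTGAAA, the core of an interferon-stimulated response element; GGGATTCCC, an NF-kappaB site; TGACGC, a site of the X2 type; and ATTGG, an inverted CCAAT box.
B2m (chr2:122147437-122147736, forward strand): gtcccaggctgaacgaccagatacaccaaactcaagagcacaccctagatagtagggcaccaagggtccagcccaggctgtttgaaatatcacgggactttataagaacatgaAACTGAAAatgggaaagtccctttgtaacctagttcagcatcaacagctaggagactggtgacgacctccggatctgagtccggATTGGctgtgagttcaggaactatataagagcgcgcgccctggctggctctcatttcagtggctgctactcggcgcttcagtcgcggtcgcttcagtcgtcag
H2-K1 (chr17:34000298-34000597, reverse strand): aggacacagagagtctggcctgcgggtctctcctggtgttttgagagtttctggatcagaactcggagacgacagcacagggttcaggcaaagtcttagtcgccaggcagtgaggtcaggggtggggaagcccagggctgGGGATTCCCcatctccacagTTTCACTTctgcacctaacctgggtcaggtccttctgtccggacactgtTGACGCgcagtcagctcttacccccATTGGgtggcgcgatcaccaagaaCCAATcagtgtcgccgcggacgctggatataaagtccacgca
H2-D1 (chr17:35262844-35263143, forward strand): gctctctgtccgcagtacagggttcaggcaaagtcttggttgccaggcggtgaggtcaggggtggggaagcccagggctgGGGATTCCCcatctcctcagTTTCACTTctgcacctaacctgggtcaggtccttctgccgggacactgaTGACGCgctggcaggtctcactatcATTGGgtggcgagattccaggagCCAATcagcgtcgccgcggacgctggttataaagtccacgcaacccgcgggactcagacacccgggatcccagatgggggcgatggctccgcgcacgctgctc
H2-Q6 (chr17:35424600-35424899, forward strand): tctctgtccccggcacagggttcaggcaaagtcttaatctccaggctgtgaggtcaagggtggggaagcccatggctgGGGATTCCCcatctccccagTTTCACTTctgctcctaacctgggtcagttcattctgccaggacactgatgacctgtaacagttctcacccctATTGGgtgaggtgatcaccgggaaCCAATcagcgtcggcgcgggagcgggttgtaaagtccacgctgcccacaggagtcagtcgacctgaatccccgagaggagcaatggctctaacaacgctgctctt
H2-T23 (chr17:36032652-36032951, reverse strand): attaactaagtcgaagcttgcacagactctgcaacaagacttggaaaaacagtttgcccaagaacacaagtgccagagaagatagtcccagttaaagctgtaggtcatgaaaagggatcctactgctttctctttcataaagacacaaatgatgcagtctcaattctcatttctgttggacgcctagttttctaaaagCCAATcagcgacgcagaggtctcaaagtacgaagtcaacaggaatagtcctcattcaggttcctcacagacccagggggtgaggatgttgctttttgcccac
Tap1 (chr17:34187306-34187605, forward strand): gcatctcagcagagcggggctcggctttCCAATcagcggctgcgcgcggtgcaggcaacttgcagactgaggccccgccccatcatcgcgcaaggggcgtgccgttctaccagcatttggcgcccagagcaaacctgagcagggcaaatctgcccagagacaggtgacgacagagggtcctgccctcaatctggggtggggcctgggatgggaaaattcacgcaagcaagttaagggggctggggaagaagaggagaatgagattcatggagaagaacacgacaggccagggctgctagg

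H2-K1, H2-D1 and H2-Q6 held the NF-kappaB letters and the interferon element core near each other in the same order, and all 3 held the CCAAT letters on both strands downstream of them. Among the 10 members the interferon element core was found in 8 (all but H2-T23 and Tap1), against 6.58% of all 32851 promoters of the same length. The NF-kappaB letters were found in 4 members (H2-K1, H2-D1, H2-Q6 and H2-Q7), against 0.353% of promoters. The X2-type letters were found in H2-K1, H2-D1, H2-Q4 and H2-M3, against 7.40%, and the CCAAT letters in all 10, against 37.4%. No matches of different motifs overlapped. H2-K1 has a further start site in the table, whose window held the same matches. A match is a run of letters and not a measured site, and the absence of one says only that these letters are not in this window.

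Levels are given as the natural log of 1 plus reads per 10000 reads of the cell (ln). The light chain gene B2m was detected in 100% of cells. It had a mean ln level of 3.47 ± 0.60 (SD over all cells analysed, as for all levels here), with a lowest cell of 0.61, a median of 3.56 and a highest of 5.20. No cell lacked it.

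The classical heavy chain genes were close to universal as well. H2-D1 was detected in 100% of cells at 3.71 ± 0.60, from 0.13 over a median of 3.75 to 5.81. H2-K1 was detected in 99.8% of cells at 3.24 ± 0.74, from 0 over a median of 3.37 to 5.50, and 1 cell had no read of it. Both genes had a small tail of cells with low values, and their distributions overlapped over most of their range.

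The non-classical genes ranged from detected in nearly every cell to undetected in more than 50% of cells. H2-T23 stood apart at the top, detected in 98.2% of cells (exact 95% interval 96.8 to 99.1, which like all intervals here covers counting error only) at 2.27 ± 0.88, with a median of 2.39 and a highest cell of 4.03. H2-Q4, a gene of the Qa region, was detected in 93.1% of cells (90.9 to 94.95) at 1.37 ± 0.79, with a median of 1.42 and a highest cell of 3.83. These were the only non-classical genes found in over 90% of cells, and in each the lowest cell was at 0.

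H2-Q6 and H2-Q7 were alike in detected share and in mean ln level, which is not corrected for gene length. Per kilobase of exon their mean reads per 10000 were 2.64 and 1.18. H2-Q6 was detected in 86.9% of cells (84.1 to 89.4) at 1.39 ± 1.03, with a median of 1.57 and a highest cell of 3.95. H2-Q7 was detected in 86.6% (83.7 to 89.1) at 1.30 ± 1.01, with a median of 1.34 and a highest cell of 3.90. Both were read in 76.98% of cells, H2-Q6 alone in 65 cells, H2-Q7 alone in 63 and neither in 23. Their spread over cells was wider than that of any other member.

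H2-T22, whose product is a ligand of some gamma delta T cells, was detected in 69.8% of cells (66.1 to 73.3) at 0.72 ± 0.71, with a median of 0.63 and a highest cell of 3.03. H2-M3 was detected in 43.8% (39.9 to 47.6) at 0.41 ± 0.67, with a median of 0 and a highest cell of 3.55. Tap1 was detected in 41.3% (37.5 to 45.2) at 0.32 ± 0.53, with a median of 0 and a highest cell of 2.44. More cells had no read of H2-M3 or Tap1 than had one.

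**Figure D1:**
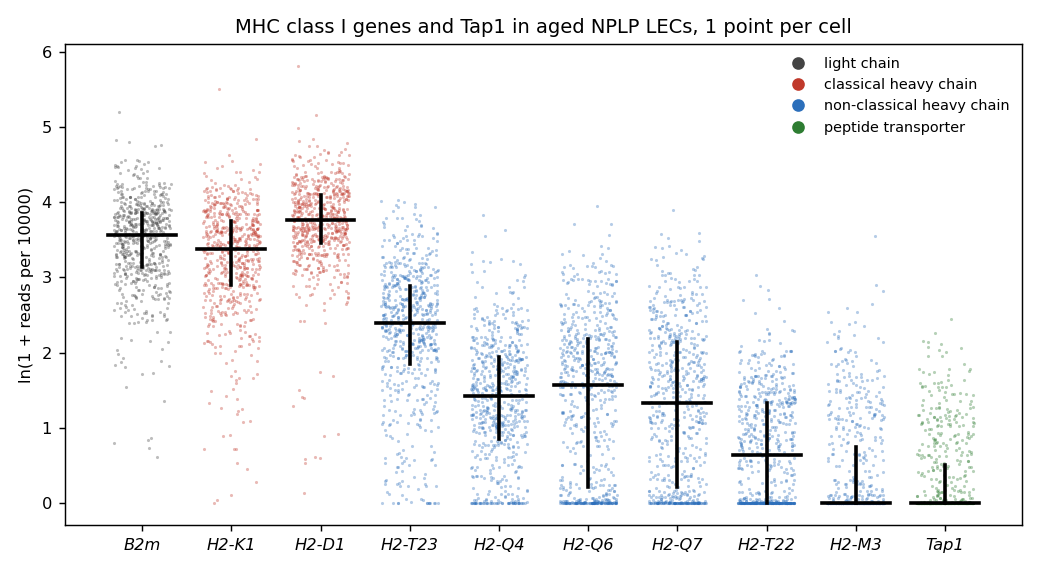
Level of each member in each cell as the natural log of 1 plus reads per 10000; each point is a cell, the horizontal bar is the median and the vertical bar the range between the quartiles. B2m and the 2 classical heavy chain genes sit highest with medians from 3.37 to 3.75, H2-T23 follows at 2.39, and the medians of H2-M3 and Tap1 are 0.

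Depth set part of the detected shares. With every cell of at least 20000 reads thinned to 20000 and the 88 shallower cells left out, H2-T23 was detected in 95.1% of cells, H2-Q4 in 85.4%, H2-Q7 in 73.2%, H2-Q6 in 72.4%, H2-T22 in 59.3%, H2-M3 in 31.3% and Tap1 in 30.1%. The order was the same as without thinning except that H2-Q6 and H2-Q7 changed places. Without thinning, all 10 members were detected together in 83 cells (12.7%), 9 of them in 32.5% of cells, 8 in 28.96% and 7 in 16.01%. The fewest in any cell was then 4, in 1 cell. In thinned cells all 10 were detected together in 32 cells (5.63%) and 9 of them in 18.7%, and the fewest was 2, in 1 cell. At this depth a cell without a read of H2-M3 or Tap1 cannot be said to lack the transcript.

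Between genes, levels can be compared only per length, here as mean reads per 10000 and per kilobase of exon. B2m stood at 42.4, H2-D1 at 17.9 and H2-K1 at 10.5. The non-classical genes were lower, with H2-T23 at 4.28, H2-Q6 at 2.64, H2-Q4 at 1.69, H2-Q7 at 1.18, H2-M3 at 0.747 and H2-T22 at 0.4995, and Tap1 was lowest at 0.119. The difference between B2m and H2-D1 was larger than the SD over cells of either gene, and no other pair of neighbours in this order differed by more than the larger SD of the pair. Within single cells H2-D1 was above H2-K1 in 85.5% of cells and H2-K1 above H2-T23 in 85.4%. Farther down the order was loose, since H2-Q6 was above H2-Q4 in 55.9% of cells, and H2-M3 was above H2-T22 in 32.01% although its mean was higher.

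The 2 classical genes made up most heavy chain reads. Per kilobase they held a median of 73.02% of the reads of the 8 heavy chain genes, from 9.60% to 99.6% over cells, and in 97.4% of cells at least 50%. In 17 cells the non-classical genes held the larger part. Summed over all cells H2-D1 gave 45.3%, H2-K1 26.6%, H2-T23 10.9% and H2-Q6 6.70%, while H2-Q4, H2-Q7, H2-M3 and H2-T22 gave 4.29%, 2.999%, 1.90% and 1.27%. The log2 ratio of H2-K1 to H2-D1 per kilobase had a median of -0.82, with the 10th percentile of cells at -2.06 and the 90th at 0.19. All 10 members together took a median of 1.34% of the reads of a cell.

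The heavy chain genes are similar in sequence, and no source used here says how reads with more than 1 matching gene were treated. Of all 50-base stretches of a gene's transcripts, 100% were found in no other gene for B2m, 99.4% for H2-M3, 96.7% for Tap1, 90.4% for H2-K1, 87.2% for H2-D1 and 85.5% for H2-T23. The share was 73.5% for H2-Q7, 65.03% for H2-Q6, 63.6% for H2-Q4 and 46.5% for H2-T22. H2-T22 shared 31.2% of its stretches with H2-T10, and H2-Q6 shared 13.9% with H2-Q7 and 12.3% with H2-Q4. H2-Q5, a class I gene outside the members, held 8.74% of the stretches of H2-Q7, 5.99% of those of H2-Q6 and 1.97% of those of H2-K1. H2-Q10, also outside the members, held 14.03% of those of H2-Q7 and 5.18% of those of H2-K1, the largest share for each. H2-K1 held 5.44% of the stretches of H2-D1, and H2-Q7 held 3.67% of those of H2-K1. Values of the H2-Q genes and H2-T22 are therefore less certain than those of B2m, H2-M3 and Tap1. How far shared reads enter the correlations between class I genes, those of H2-Q5 included, was not tested.

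Over cells, the classical pair and the light chain varied together. Spearman's rho was 0.510 between B2m and H2-D1, 0.481 between H2-K1 and H2-D1 and 0.476 between B2m and H2-K1. All correlations here are descriptions over the cells of 1 pool, which share their library preparation and differ in depth, and carry no p. The median over all 45 pairs of members was 0.182, and all 45 were above 0, from 0.0075 to 0.510. No share over all pairs of genes is given here, so counts of pairs, here and below, compare the members only among themselves. H2-K1 and H2-Q6 reached 0.502, as high as the classical pair.

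The 3 H2-Q genes varied with the classical genes, and the remaining members less so. Of the 9 pairs of H2-K1, H2-D1 or B2m with an H2-Q gene, 9 had a rho of at least 0.2 and the median was 0.356. The 15 pairs among the non-classical genes had a median of 0.139, with 3 at 0.2 or above. H2-T23 had 3 of 9 pairs at 0.2 or above, at a median of 0.165, despite being the non-classical gene with the most reads. H2-M3 (median 0.121) and Tap1 (median 0.110) had none of 9, and between the 2 of them rho was 0.0075. For these sparse genes a weak correlation is no finding. Thinned to equal depth, the median was 0.483 for the trio of B2m, H2-K1 and H2-D1, 0.348 for the trio with the H2-Q genes and 0.131 for Tap1 with the others.

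**Figure D2:**
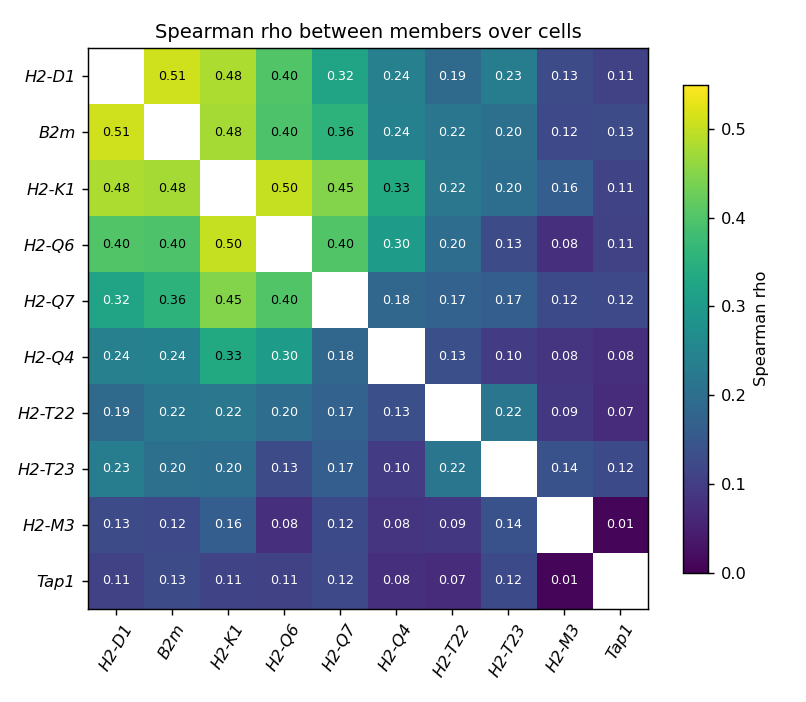
Spearman's rho between members over all cells analysed, with the value printed in each square and colour from 0 (dark) to 0.55 (bright). The block of H2-D1, B2m, H2-K1, H2-Q6 and H2-Q7 at the upper left holds the highest values, up to 0.510, and the rows of H2-M3 and Tap1 hold none above 0.164.

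A classical level was then formed as ln of 1 plus the summed reads per 10000 of H2-K1, H2-D1 and B2m, and a non-classical level likewise from the 6 non-classical genes. The classical level was 4.62 ± 0.53, from 1.40 over a median of 4.68 to 6.55, and the non-classical level was 3.24 ± 0.70, from 0.32 over 3.31 to 5.19. Most cells lay in a single cloud with a few cells low in both, and rho between the 2 levels was 0.535. The classical level hardly followed depth, with a rho of 0.034 with total reads and 0.052 with the number of detected genes.

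**Figure D3:**
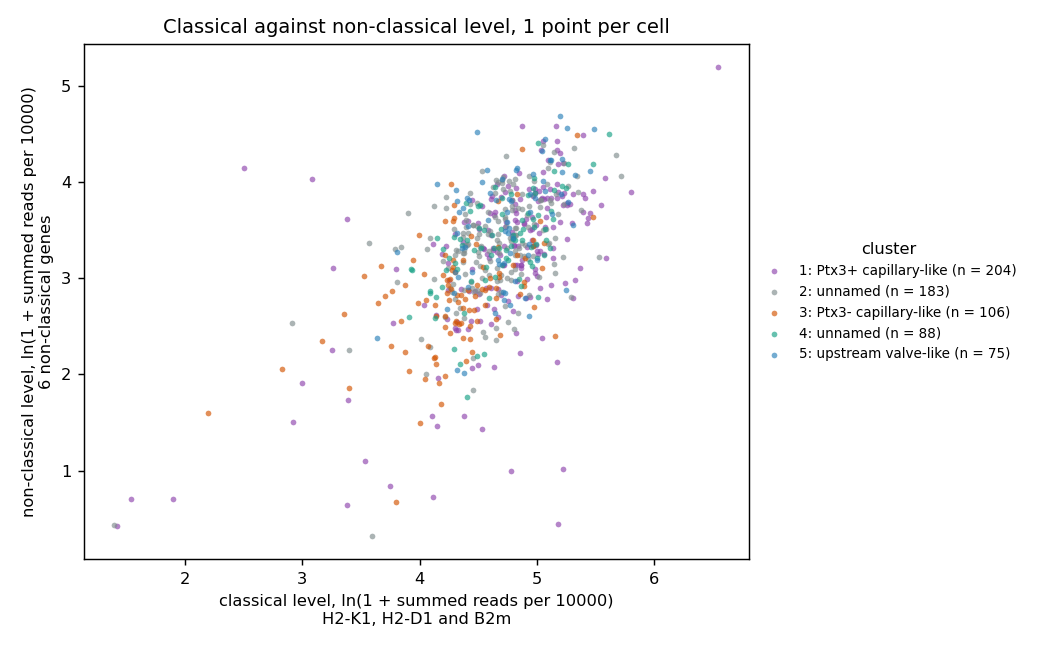
Non-classical against classical level (ln of 1 plus summed reads per 10000) of each cell, coloured by the cluster of the cell. Cells high in one level tend to be high in the other (rho 0.535), and cells of cluster 3 lie toward the lower left of the cloud.

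Cells were clustered without MHC and interferon genes to see whether the members differed between kinds of LEC. Cluster 1 (31.1% of cells) was Ptx3+ capillary-like, with Stab2, Itih5 and Mrc1 raised. Cluster 3 (16.2%), led by Tppp3 and Fndc1, was Ptx3- capillary-like by 3 raised markers (Fndc1, Ccl21a and Reln). Ptn, which the study also used for that class, was 1.40 times the other cells in cluster 3 and 7.60 times in cluster 4. Cp, a further marker listed for the class, was 0.836 times in cluster 3, and the precollecting marker Lyve1 was raised there. Cluster 5 (11.4%) was upstream valve-like by 3 raised markers (Neo1, Cldn11 and Gata2), and Gdf15 and Il6 were also among its leading genes. Foxc2 (1.23 times the other cells), Vcam1 (1.14) and Itga9 (1.01), further markers listed for that class, were not raised. Cldn11 is also listed for the downstream valve class, as is Cd24a, which was raised (4.12). The precollecting marker Esam was raised in cluster 5 too (3.24). Cluster 2 (27.9%), led by Ahsg, Kng2, Spp1 and Apoe, had 3 raised markers of the precollecting class and 3 of the downstream valve class, and stayed unnamed. Cluster 4 (13.4%), led by Anxa8 and Ptn, reached 3 for no class and stayed unnamed as well. Names rest on markers alone, and these groups may differ from the classes of the study.

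The Fndc1-led cluster 3 had the lowest mean of 8 of the 10 members. Its classical level was 4.32 ± 0.48, against 4.64 to 4.74 in the other clusters. H2-Q6 showed the widest gap, at 0.61 ± 0.82 in cluster 3 against 1.43 to 1.62 elsewhere, and it was detected in 37.8% of thinned cells there (27.8 to 48.6) against 77.01% to 82.4%. H2-Q7 was 0.71 ± 0.80 in cluster 3 against 1.34 to 1.63, and H2-K1 2.77 ± 0.78 against 3.27 to 3.41. H2-D1 moved least among the abundant genes, from 3.49 in cluster 3 to 3.77 in cluster 4. The SDs over cells of the clusters overlapped for every member.

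The low values of cluster 3 were then looked at by block and in other clusterings. They had been picked from these same cells, so this shows how evenly they held and is no independent check. H2-T22 and Tap1 were not looked at by block. In the 8 blocks of 96 consecutive cell numbers that held at least 5 cells of cluster 3, its classical level was below that of the other cells in 8, and so were H2-K1, B2m, H2-Q4, H2-Q6 and H2-Q7, while H2-D1 was below in 7. Over 8 clusterings with other settings or seeds, the main one included, the Fndc1-led cluster was lowest in H2-Q6 in 8 and in the classical level in 7. The exception was the clustering on 3000 variable genes, where the Fndc1-led cluster stood at 4.32 and another cluster at 4.28. Clusters share animals, and the mice behind each cluster are unknown.

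H2-T23 followed another order. Its mean was lowest in the Ptx3+ capillary-like cluster 1, at 1.94 ± 0.98, and highest in the upstream valve-like cluster 5, at 2.62 ± 0.88, with cluster 3 between them at 2.15 ± 0.79. In blocks of these same cells, cluster 1 was below the other cells in 11 of 11 that held at least 5 of its cells. It was lowest in H2-T23 in 4 of the 8 clusterings, and in the other 4 a different cluster was lower. The classical share of heavy chain reads was lowest in cluster 5, at a median of 67.5%, and highest in cluster 3, at 77.1%.

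The scarce members had small mean levels in every cluster. Tap1 ranged from 0.20 in cluster 3 to 0.44 in cluster 4, and was detected in 17.8% of thinned cells in cluster 3 (10.5 to 27.3) and 45.9% in cluster 4 (34.3 to 57.9). H2-T22 ranged from 0.49 in cluster 3 to 0.80 in cluster 4. H2-M3 went from 0.32 in cluster 5 to 0.46 in cluster 1, and it was the only member lowest in cluster 5.

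**Figure D4:**
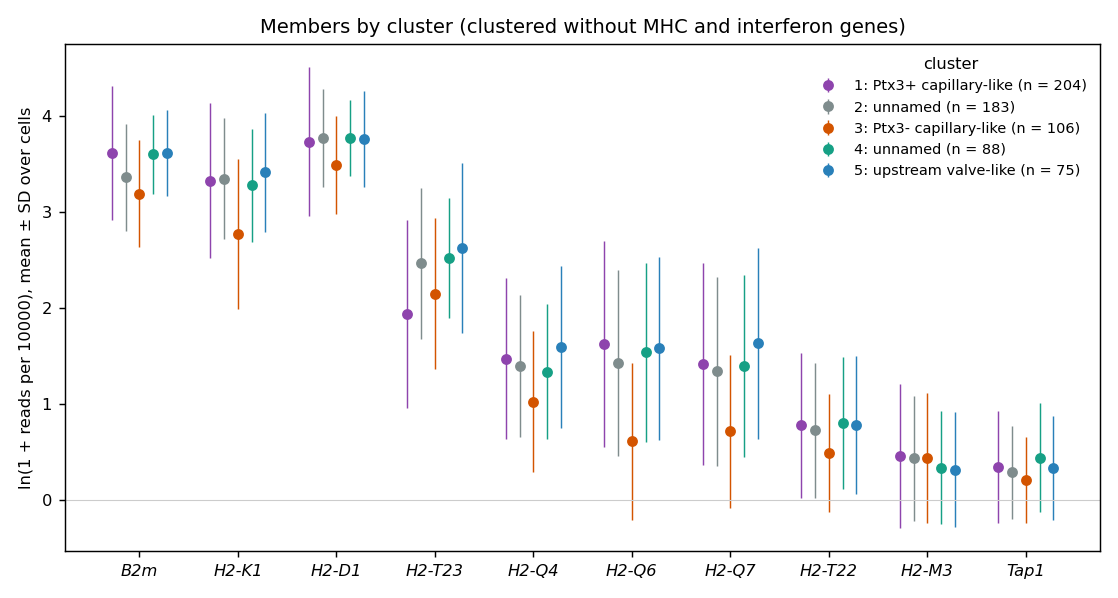
Mean level of each member in 5 clusters, as ln of 1 plus reads per 10000, with bars of 1 SD over the cells of the cluster; the numbers of cells are in the legend. Cluster 3 is lowest for 8 members, most clearly for H2-Q6 at 0.61, whereas H2-T23 is lowest in cluster 1 at 1.94.

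Of 5269 genes outside the members that were detected in at least 30% of cells, 37 (0.702%) had a rho of at least 0.2 with the classical level and 12 (0.228%) a rho of -0.2 or below. With the non-classical level 17 (0.323%) reached 0.2, of which 12 were among the 37. The median rho over all 5269 genes was 0.015 and the 99th percentile 0.176. Of the 37 genes, 34 kept a rho of at least 0.2 after adjustment for total reads and detected genes, 31 with block means removed and 22 with cluster means removed.

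The highest of these were Ly6e (rho 0.386), a surface protein induced by interferon, and Bst2 (0.359), which encodes tetherin, a membrane protein that holds back budding virions. They were also among the abundant genes, with Ly6e detected in 100% of cells and Bst2 in 98.2%, and with cluster means removed their rho was 0.384 and 0.353. Then came the paired membrane genes Tmem176b (0.319) and Tmem176a (0.278), the secreted Igfbp7 (0.316), the class I gene H2-Q5 (0.289), complement C3 (0.286), Serinc3 (0.284) and the interferon-induced Ifi27l2a (0.275). Plvap, which forms the diaphragms of endothelial fenestrae, had 0.274, which was 0.170 with cluster means removed. Tapasin (Tapbp, 0.260), serglycin (Srgn, 0.259), the immunoproteasome subunit Psmb8 (0.254), the guanylate-binding protein gene Gbp9 (0.249) and Trp53i11 (0.248) completed the 15 highest.

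At the other end stood Fndc1 (-0.325), the matrix genes Tgfbi (-0.277) and Tnxb (-0.273), Tppp3 (-0.271) and Megf6 (-0.270). Fndc1 and Tppp3 were leading genes of cluster 3. With cluster means removed Fndc1 had -0.187, and 0 of the 12 genes stayed at -0.2 or below.

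Genes that feed the class I pathway were then counted by role. Of the 7 peptide loading genes tested, Tapbp (0.260) and Tap2 (0.237), the partner of Tap1, reached a rho of 0.2, while the general chaperone gene Calr had -0.02, and the median of the list was 0.109 against 0.015 over all genes. Of 5 genes of the immunoproteasome and its activator, Psmb8 (0.254) and Psme2 (0.217) reached it, at a median of 0.174. None of the 3 constitutive counterparts did, at a median of 0.034. Of 24 interferon genes tested 5 reached it (Bst2, Zbp1, Irf7, Ifitm3 and Gbp3), at a median of 0.147, and with the non-classical level 6 did. None of 9 genes for transcription factors of class I genes reached it. The highest of them, Nlrc5, the class I transactivator, had 0.181, and the median was 0.138. The interferon receptors and their kinases (6 tested) gave 0 genes at a median of 0.057, and the LEC identity genes (8 tested) gave 0 at 0.087.

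Per kilobase, constitutive subunits outnumbered their immune counterparts in mean level for 2 of 3 pairs. Psmb6 was 5.02 times Psmb9 and Psmb5 2.06 times Psmb8, whereas Psmb7 was 0.309 times Psmb10. Tap2 was 3.19 times Tap1. These ratios of mean levels come from the same cells and have no replicate error.

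**Figure D5:**
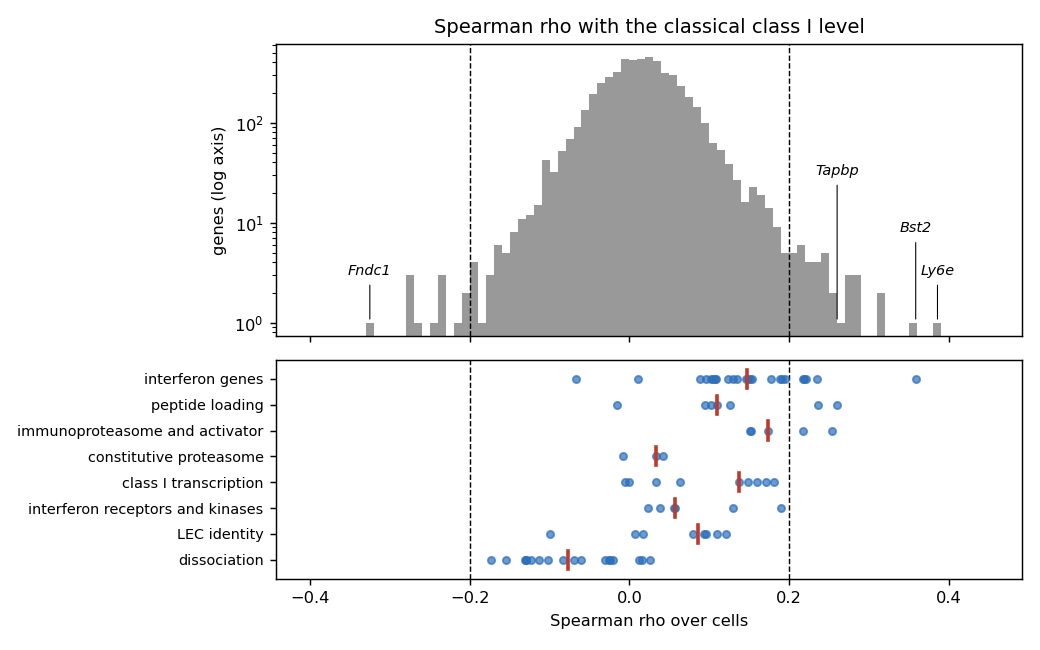
Spearman's rho of 5269 genes with the classical level over all cells analysed, as a histogram with a log count axis (top), and the tested genes of 8 lists with the list median as a red bar (bottom); dashed lines mark -0.2 and 0.2. Ly6e and Bst2 lie at the right edge and Fndc1 at the left, and the medians of the immunoproteasome (0.174) and interferon genes (0.147) lie right of the bulk of genes, whose median is 0.015.

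Single members differed in the genes most like them outside the member list. B2m was most like Ly6e (0.395), Bst2 (0.359) and Ifi27l2a (0.324). H2-D1 was most like Ly6e (0.338), Serinc3 (0.283) and Itm2b (0.279), and H2-K1 like H2-Q5 (0.307), Bst2 (0.299) and Tmem176b (0.283). H2-Q6 had Igfbp7 (0.254), H2-Q5 (0.247) and Plvap (0.242), and H2-Q7 had Tmem176a (0.256), Psmb8 (0.231) and Tmem176b (0.225).

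The genes most like the remaining members were as follows. For H2-T23 the 5 nearest genes were Ly6e (0.330), Ifi27l2a (0.290), Ifitm3 (0.274), Clca3a1 (0.271) and Slc6a9 (0.266), and no member was among its 8 nearest genes. For H2-T22 they were Irf7 (0.230), Gbp9 (0.211) and Zbp1 (0.2003). Tap1 had no gene above 0.2, with Irgm2 (0.191), Iigp1 (0.185), complement C2 (0.183), Pdpk1 (0.182) and Isg15 (0.179), and H2-M3 had Tmem167 (0.188), Bst2 (0.156) and Tnfsf10 (0.155).

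H2-Q4 differed in its neighbours. They were Socs3 (0.3001), the cytokine signalling suppressor, Irf1 (0.257) and Sbno2 (0.249). It was also the member with the highest rho with the mean of 18 dissociation genes such as Fos and Jun, at 0.209, whereas H2-D1 had -0.154. The part of the dissociation genes in the neighbours of H2-Q4 was not tested.

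The rho of each member with the mean level of 31 interferon genes was above 0. It was highest for B2m (0.336), H2-T23 (0.324) and H2-K1 (0.312) and lowest for H2-M3 (0.118) and Tap1 (0.171). No share over all genes was taken for this rho, so these values compare the members only among themselves. The classical level had 0.353 and the non-classical level 0.348, and with cluster means removed 0.368 and 0.365. The mean interferon level itself was 0.56 to 0.61 in all 5 clusters.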

How the data were processed

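The deposited values were 1 table of natural log values of 23168 genes in 656 cells. According to the methods, the authors mapped reads to mm10 (STAR), summed them over genes (featureCounts), and normalised them in Seurat (version 4.1.0 per the labels) after removing cells with under 2000 genes or over 10% mitochondrial reads. The methods state a log2 scale, but the deposited natural log values fit ln of 1 plus reads per 10000, because their exponentials minus 1 summed to 10000 in every cell. On that scale 100% of the values above 0 were whole reads within 0.01. Reads, not unique molecules, were counted. Of 1152 labelled cells 496 were not analysed here, and 568 of the 656 analysed were deep enough for thinning. Correlations were taken over the 656 cells, except those on thinned reads (568 cells) and those that left out cells.

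Members and lists were chosen with earlier results of these data known. Named genes were all members, 2 to 4 genes a list, the 15 highest and 5 lowest in rho with the classical level, the 5 genes most like Tap1 and H2-T23, and the 3 most like each other member. Cells were clustered in Seurat 5.3.0 with R 4.3.3 (2000 variable genes less MHC and interferon genes, 15 components, the lowest resolution with at least 5 clusters). A class name needed 3 markers raised 1.5 times, and cluster 2, which reached 3 for the precollecting and the downstream valve class alike, was given none. Doublets were not called, as wells had received single cells. Exact (Clopper-Pearson) 95% intervals came from scipy 1.17.1 and cover counting error only. Exon lengths and positions came from GENCODE M21, which held 22258 of the gene symbols. Read recovery and the correlations were tested on simulated cells at the depths of these cells. Reads were recovered in 100% of values over 23168 genes. Of 13265 unlinked genes 0% passed a rho of 0.2, and so did 0% of 67 genes given the weakest link. Those 13265 had passed the filter of detection in 30% of cells, which 5279 genes passed in the real cells. The simulated cells were thus less sparse, and how far these rates hold at the sparsity of the data was not tested. The unlinked genes had independent noise, and the cells in the correlation test had no clusters. The simulation therefore cannot say how many real genes pass through traits that cells share. Alternatives covered detection, thinning, gene length, the correlation measure and its adjustments, clustering, and leaving out blocks of cells.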

Additional observations from a re-analysis of the deposited data

How the results depend on the processing

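The cells were 1 sample, so no result had a test, and stability could be judged only by the size of the moves. The median share of cells with the members detected, 90.02%, moved to 66.8% when detection needed an ln value above 1, to 79.3% in thinned cells and to 93.1% without the cells lowest in detected genes (1 in 4). The count of 37 genes with a rho of at least 0.2 with the classical level moved to 66 with Pearson's r and to 17 with the non-classical level in its place. It ran from 25 to 38 under the other 7 alternatives, with 34 when cells with a haematopoietic read were left out. The classical share of heavy chain reads ran from 71.98% to 80.8% over 5 alternatives, the median rho between members from 0.163 to 0.188 over 7, and the gap between the highest and lowest cluster in the classical level from 0.39 to 0.49 over 7, against 0.42. Leaving out each of 12 blocks of 96 cell numbers gave 89.7% to 90.5% for detection, 72.8% to 73.2% for the classical share, 0.167 to 0.199 for the median rho and 31 to 41 genes. No paired analysis was possible because all cells belonged to 1 group. Depth limits the scarce members most, since in thinned cells H2-M3 was read in 31.3% and Tap1 in 30.1%.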

Other observations

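Other genes that face T cells and natural killer cells were sparse in these cells. The class II genes were detected in 1.22% of cells (Ciita, the class II transactivator) to 28.4% (H2-Ab1 and Cd74). Of the ligands for T cell and natural killer receptors, Tnfrsf14 was detected in 20.7%, Cd274, which encodes PD-L1, in 18.4% and Raet1e in 12.96%. Raet1d had no reads in any cell. A floor of 3 cells would be 0.457% of cells with a read and the exact 95% upper limit was 0.561%, and neither limits the share of cells that express the gene.

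Of 12 other class I and class I-like genes, Fcgrt, the neonatal Fc receptor that also pairs with B2m, was detected in 98.3% of cells at a mean ln of 2.10. Mr1, which shows microbial vitamin metabolites, was detected in 31.7%, Cd1d1, which shows lipids, in 13.4%, and Hfe in 27.3%. The remaining ones ran down to H2-M2 at 0.915%. Over 12 blocks of 96 consecutive cell numbers, mean ln levels of H2-T23 ran from 1.93 to 2.65, those of H2-Q7 from 0.83 to 1.60, and the classical level from 4.46 to 4.78.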
